A study of Homo sapiens with 48 samples.

Results

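The 9 genes described here encode regulators of the early transcriptional response, most with short-lived mRNAs, and the factor that drives much of it. The set holds IER2, IER3, IER5 and IER5L of the immediate early response family and EGR1 and EGR3 of the early growth response family. It also holds CSRNP1 and CSRNP2 of the cysteine-serine-rich nuclear protein family, and SRF. They are 9 of 58721 annotated genes, chosen by name without a cutoff on a measured value, but with earlier results of these data known. All 9 were present in both RNA sequencing tables and passed the filters on low values in both. On GRCh38 (GENCODE 29) IER2 lies at chr19:13150415-13154908 (+), IER3 at chr6:30743199-30744554 (−), IER5 at chr1:181088712-181092899 (+), IER5L at chr9:129175552-129178262 (−), EGR1 at chr5:138465490-138469315 (+), CSRNP1 at chr3:39141855-39154562 (−), CSRNP2 at chr12:51061205-51083664 (−), SRF at chr6:43171299-43181507 (+) and EGR3 on chromosome 8.

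The cells were DLD-1, an established human colorectal cancer cell line, in 3 versions that all carried TIR1 (genotype TIR1+), the plant receptor that lets auxin direct a tagged protein to degradation. The parental cells had no tagged subunit, CNOT1-AID cells carried the auxin-inducible degron on CNOT1, the scaffold of the CCR4-NOT deadenylase complex, and CNOT4-AID cells carried it on CNOT4, a ubiquitin ligase that associates with that complex. For the steady-state set each version was left untreated or given 1 mM auxin, for 8 h or 24 h. For the decay set each version first received 1 mM auxin for 2 h, and then 1 µM triptolide, an inhibitor of transcription initiation, for 0 h (none), 3 h, 6 h or 12 h. Each of these 12 groups per set had 2 libraries, 48 in all. Whether the 2 libraries of a group came from separate cultures is not given in the sources used here, so p-values measure the spread between libraries, which may be technical, and whether each tagged line is 1 clone is not given either.

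Growth factors and stress induce this class of genes within minutes and without new protein synthesis. SRF, a MADS-box transcription factor, binds the CArG box in promoters such as that of EGR1, and acts either with ETS-family cofactors downstream of the RAS and MAP kinase route or with MRTF cofactors that respond to actin. The resulting mRNAs are brief because adenylate- and uridylate-rich elements and other sites in their 3′ untranslated regions recruit factors that bring in CCR4-NOT, which removes the poly(A) tail.

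Among the genes with a promoter in the RefSeq table (GRCh38.p14, 250 bases before to 50 after the annotated start, both strands searched), EGR1 and SRF held the CArG box and the other 5 did not; IER3 and EGR3 were not matched. The box was found in 454 of 35116 promoters, 1.29%, and at least 2 boxes in 0.0313%; EGR1 and SRF each held 2. These stretches are shown because EGR1 is the member with the largest early difference and SRF is the factor that reads the box. The boxes are in capitals, at chr5:138465344-138465435 (+ strand, boxes beginning 105 and 83 bases before the start) and chr6:43171209-43171268 (+ strand, boxes beginning 30 and 10 bases before the start).
EGR1: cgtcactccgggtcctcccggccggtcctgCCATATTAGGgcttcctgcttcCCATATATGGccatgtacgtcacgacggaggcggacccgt
SRF: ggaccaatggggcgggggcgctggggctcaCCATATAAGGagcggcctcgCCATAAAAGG

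In the 3′ untranslated regions of the GENCODE 29 transcripts (mRNA strand only, overlapping matches counted), 8 of the 9 members held the pentamer ATTTA, the core of an adenylate- and uridylate-rich element, against 64.9% of 18831 annotated regions of all lengths. IER5 held 10 copies in 3013 bases, IER3 held 6 in 737 bases, and IER2 held 0 in 1050 bases. Among regions of like length (within 25%) 65.2% to 96.1% held the pentamer, so 8 of 9 is near the background. As many copies of ATTTA as in IER3 occurred in 3.05% of regions of like length, and as many as in IER5 in 25.3%. The longer TTATTTATT, which holds the pentamer with 2 bases added at each end, was found in 3 members, IER5, CSRNP1 and SRF. It was found in 7.56% of all regions. Its share in regions of like length was 14.2% for IER5, 6.04% for CSRNP1 and 12% for SRF, and 0.856% held as many copies as the 3 of IER5. The 30-base sites below are examples, with ATTTA in capitals, on GRCh38. Their part in the decay of these mRNAs was not tested.
IER3, chr6:30743648-30743677 (− strand): taattaatATTTAtatgtATTTAtgtacgt
IER5, chr1:181092448-181092477 (+ strand): ttcctttATTTATTTATTTATTTAattata
CSRNP1, chr3:39142887-39142916 (− strand): caattctctggATTTATTTAtttgttttaa
EGR1, chr5:138469063-138469092 (+ strand): actgaaaatgtaaATTTAtaaatatattca
IER5L, chr9:129176605-129176634 (− strand): agaaaaagcgcctATTTAagtatgctttgt

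The Pumilio element TGTANATA, a second kind of site known to recruit CCR4-NOT, was found in 3 of 9 members (EGR1, IER5 and EGR3) and in 23.6% of all regions. Its share in regions of like length was 23.6% for EGR1, 44.2% for IER5 and 42.7% for EGR3, so 3 of 9 is near the background. It is in capitals here.
EGR1, chr5:138468721-138468750 (+ strand): gttaaccttttTGTAAATActgcttgaccg
IER5, chr1:181090681-181090710 (+ strand): ccttatggtttTGTAGATAtggtgactcca

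The steady-state values were TPM, transcript abundances scaled to a fixed total per library, which keep no depth, and the decay values were read counts of 18216427 to 26723618 per library. ERCC spike-in RNA made up 0.847% to 1.67% of the steady-state TPM and 0.941% to 3.92% of the decay reads, and protein-coding genes held 30.6% to 54.7% of the TPM, least in the first CNOT4-AID library with 8 h of auxin. Of 8 colon epithelial markers 7 had a mean of at least 1 TPM, with a summed level of 1932.8 to 4688.7 TPM per library, against at most 4.09 for fibroblast, 3.81 for blood and 0.55 for endothelial markers. CNOT1 mRNA was 39.89 to 48.26 TPM in CNOT1-AID cells with auxin and 48.97 to 68.37 without, against 83.82 to 95.17 in untreated parental cells; auxin removes the tagged protein, and protein levels are not part of these data. CNOT4 mRNA was 32.49 to 44.42 TPM in CNOT1-AID cells with auxin and 6.9 to 9.51 without. In bulk samples fewer cells with a transcript and less of it per cell cannot be told apart. IER2, IER3, IER5L, EGR3 and CSRNP1 overlap a gene on the opposite strand, and as strand use in the counting is not given, reads of the pairs may be mixed.

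At rest, IER3 was the most abundant of the 9 per transcript length and EGR3 the least. Mean TPM in untreated parental cells at 8 h was 77.8 for IER3, 42.1 for IER2, 33.7 for EGR1, 17.2 for SRF, 9.21 for CSRNP2, 9.11 for CSRNP1, 7.89 for IER5, 4.59 for IER5L and 1.38 for EGR3. The libraries of CSRNP2 and CSRNP1 overlapped, and every other neighbour in that order was separated in both libraries. Untreated CNOT1-AID cells differed from untreated parental cells in 1 of 9 members, SRF, with a log2 difference of 0.16 ± 0.049 (SE, limma adjusted p = 0.026), where 20.7% of all genes passed in either direction; this call was lost without scaling, with ERCC scaling and without any 1 of 4 libraries, the first untreated parental library at 8 h or at 24 h, the first untreated CNOT1-AID library at 8 h and the second at 24 h (adjusted p from 0.104 to 0.121).

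IER5L, a relative of IER5 of less known function, changed most at steady state. In CNOT1-AID cells it stood at 4.45 and 4.67 TPM untreated at 8 h and at 62.85 and 63.35 TPM after 8 h of auxin; at 24 h the untreated libraries had 5.80 and 5.34 TPM and the auxin libraries 41.25 and 44.25. Both auxin pairs lay far above every untreated library of the 3 lines. On the log2(TMM-scaled TPM + 0.5) scale used for all steady-state differences, which understates changes of low genes, IER5L rose by 3.36 ± 0.10 at 8 h (SE, 10.3-fold, limma, Benjamini-Hochberg adjusted p = 1.89e-13) and by 2.57 ± 0.10 at 24 h (5.94-fold, adjusted p = 1.22e-12).

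IER5, which binds the phosphatase PP2A and acts on heat shock factor HSF1, and CSRNP2, a nuclear protein of the CSRNP family, also rose at both times. IER5 went from 7.39 and 8.58 TPM to 26.93 and 26.55 at 8 h, and from 9.42 and 9.48 to 25.77 and 24.32 at 24 h. CSRNP2 went from 8.54 and 8.76 TPM to 31.65 and 33.79 at 8 h, and from 10.22 and 9.17 to 40.90 and 40.13 at 24 h. In each case the auxin libraries lay above the untreated ones without overlap. The log2 rise was 1.40 ± 0.052 and 1.10 ± 0.052 for IER5 at 8 h and 24 h (adjusted p = 1.46e-12 and 8.74e-12), and 1.57 ± 0.087 and 1.75 ± 0.087 for CSRNP2 (adjusted p = 1.39e-10 and 1.54e-11).

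CSRNP1, a nuclear protein first described as induced by the WNT pathway component AXIN1, rose mostly at 8 h. It stood at 8.72 and 8.27 TPM untreated and 25.50 and 24.37 with auxin at 8 h, then at 6.17 and 7.03 against 10.14 and 9.75 at 24 h. The groups did not overlap at either time, and the 24 h auxin level was below the 8 h one. The log2 rise was 1.21 ± 0.094 at 8 h (adjusted p = 8.87e-09) and 0.31 ± 0.094 at 24 h (adjusted p = 0.00743). The 24 h call ended without the first untreated CNOT1-AID library at 24 h (adjusted p = 0.132) and in a fit of the CNOT1-AID libraries alone (adjusted p = 0.0547).

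IER3, a stress-induced regulator of cell survival, moved in opposite directions at the 2 times. At 8 h it fell from 77.67 and 78.61 TPM to 43.60 and 40.71, and at 24 h it rose from 71.99 and 69.96 to 150.27 and 163.17. At 8 h both auxin libraries were the lower pair and at 24 h both were the higher pair. The log2 difference was -1.18 ± 0.061 at 8 h (adjusted p = 6.97e-11) and 0.87 ± 0.061 at 24 h (adjusted p = 1.29e-09), and the change between the responses, 2.05 ± 0.087, passed as well (adjusted p = 5.77e-10).

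EGR1, the zinc-finger transcription factor that stands for this gene class, did not pass at 8 h and fell at 24 h. Its levels were 35.56 and 36.81 TPM untreated and 48.76 and 48.12 with auxin at 8 h, and 29.17 and 29.51 against 13.53 and 14.81 at 24 h. The 8 h auxin libraries lay above the untreated ones in TPM, but after TMM scaling the log2 difference was 0.12 ± 0.070 (adjusted p = 0.137), while without scaling it was 0.42 (adjusted p = 0.00166) and with ERCC scaling 0.58 (adjusted p = 6.19e-05). At 24 h it fell by 1.28 on the log2 scale (SE 0.070, adjusted p = 5.02e-11), and this held with every scaling.

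IER2, a nuclear protein induced by growth factors, and SRF were both lower at 24 h. IER2 stood at 38.75 and 38.18 TPM untreated and 54.65 and 57.74 with auxin at 8 h, then at 35.56 and 39.18 against 27.60 and 27.94 at 24 h. It rose by 0.25 ± 0.084 at 8 h (adjusted p = 0.0171), a call lost without the second untreated library at 8 h (adjusted p = 0.208), without the second auxin library at 8 h (adjusted p = 0.112) and with the CNOT1-AID libraries alone (adjusted p = 0.0641), and changed by -0.68 at 24 h (adjusted p = 1.59e-06). SRF stood at 19.18 and 19.87 TPM untreated and 19.50 and 20.89 with auxin at 8 h, which overlap, then at 16.13 and 16.83 against 10.94 and 11.31 at 24 h. The SRF difference at 8 h was -0.24 ± 0.069 with TMM scaling (adjusted p = 0.00592), but 0.05 without scaling (adjusted p = 0.673) and 0.21 with ERCC scaling (adjusted p = 0.0697), and the call was also lost without the first untreated library (adjusted p = 0.0726) or the first auxin library (adjusted p = 0.0638) at 8 h. At 24 h SRF changed by -0.80 (SE 0.069, adjusted p = 1.99e-08) and lay below with every scaling.

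EGR3, a second zinc-finger factor, had levels under 2 TPM throughout and did not pass at either time. CNOT1-AID cells had 0.88 and 0.95 TPM untreated and 1.54 and 1.84 with auxin at 8 h, and 0.51 and 0.71 against 0.48 and 0.82 at 24 h. The log2 difference was 0.41 ± 0.20 at 8 h (adjusted p = 0.0814) and -0.10 ± 0.20 at 24 h (adjusted p = 0.677); at 24 h it was above 0 without scaling and with ERCC scaling and passed in neither, while at 8 h it passed without scaling (0.63, adjusted p = 0.0123) and with ERCC scaling (0.75, adjusted p = 0.00255).

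**Figure D1:**
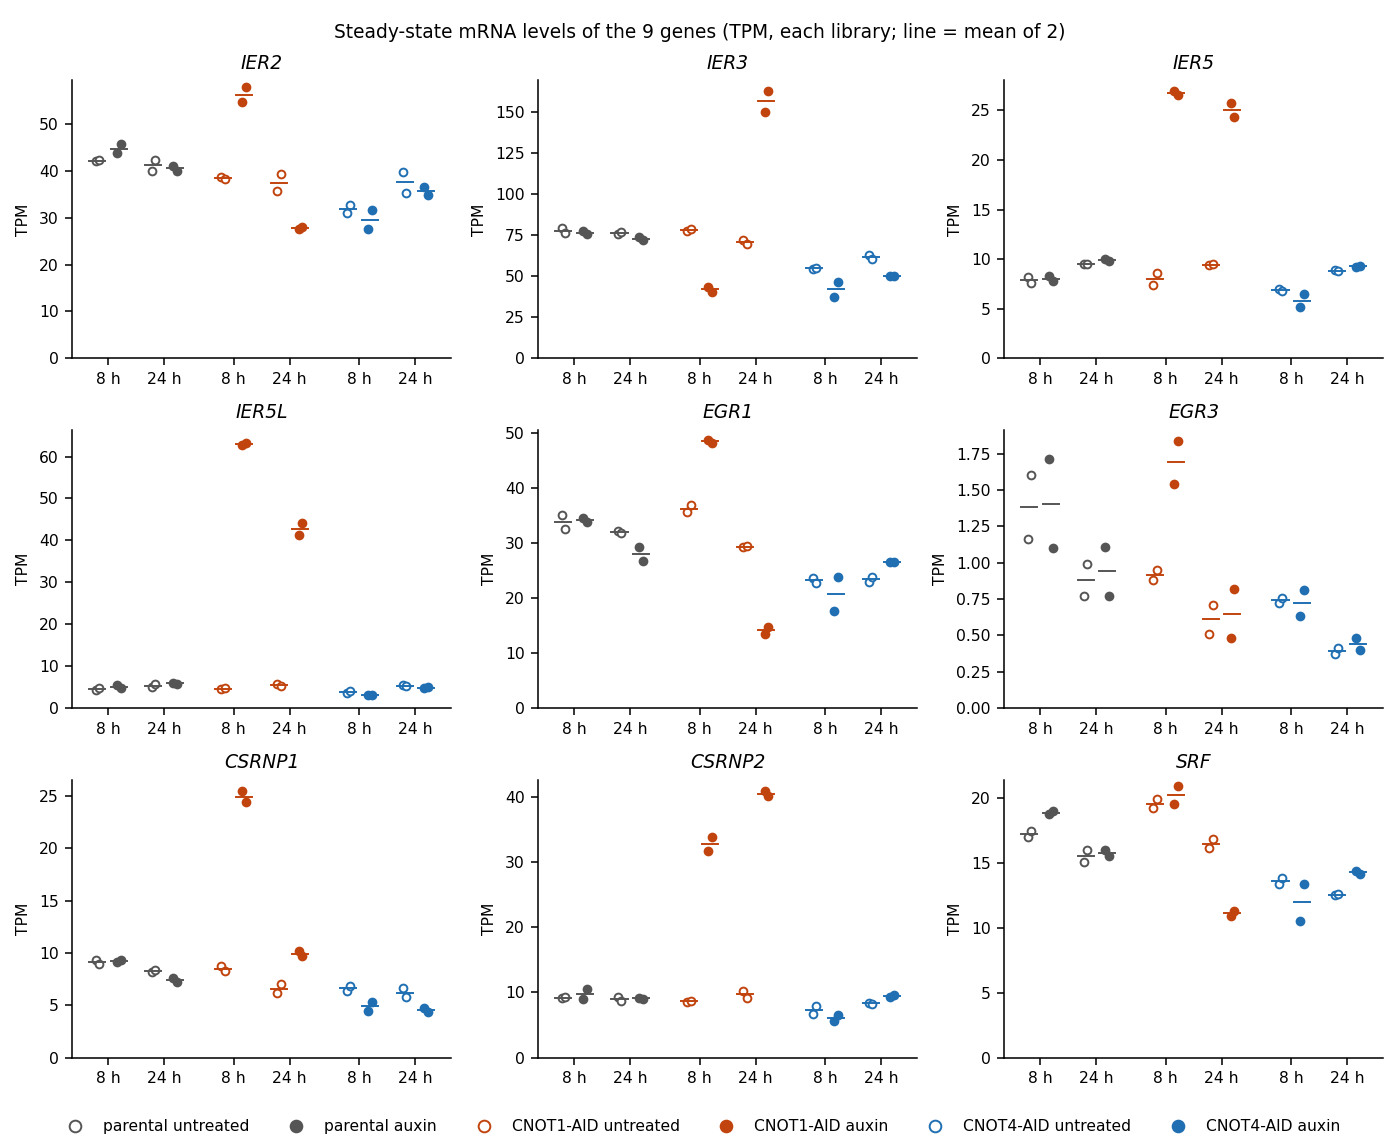
Steady-state level of each of the 9 genes in TPM (vertical axis, from 0) by cell line and time (horizontal axis); open circles are untreated and filled circles auxin-treated libraries, and the line is the mean of 2. The CNOT1-AID auxin libraries stand apart for IER5, IER5L and CSRNP2 at both times, and IER3 lies below at 8 h (43.60 and 40.71 TPM) and above at 24 h (150.27 and 163.17 TPM).

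Counted together, 5 members rose and 2 fell in CNOT1-AID cells at 8 h, and 5 rose and 3 fell at 24 h. Over all 14921 genes tested 33.1% rose and 29.8% fell at 8 h, and 36.7% rose and 34.8% fell at 24 h, so that most genes changed and the members' share of calls was not far from the background. The median log2 difference of the 9 was 0.41 at 8 h and 0.31 at 24 h, against 0 and -0.01 over all genes. The direction of the calls at 8 h depended on scaling: 4933 genes were higher and 4441 lower with TMM, 7778 and 1470 with ERCC scaling, and 6624 and 2251 with none, and the members were 7 higher and 1 lower with either of the last 2. The median of all genes was shifted by 0.41 with ERCC scaling and 0.26 without scaling at 8 h, and by 0.31 and 0.21 at 24 h, where 7013 genes were higher and 2892 lower with ERCC scaling, 6546 and 3564 with none, and 5472 and 5198 with TMM.

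Parental cells given auxin showed no such change. Of the 9 members 0 passed in limma at 8 h, with 0 at an unadjusted p under 0.05, and 0 passed at 24 h, with 1 at an unadjusted p under 0.05 (EGR1, -0.18 ± 0.070); 0.0201% and 0% of all genes passed. For EGR1 the untreated parental libraries at 24 h had 32.17 and 31.75 TPM and the auxin ones 29.22 and 26.64. The response of CNOT1-AID cells minus that of parental cells passed for 6 members at 8 h, 4 higher and 2 lower, where 27% of all genes were higher and 23.2% lower, and for 8 at 24 h, 5 higher and 3 lower, where 32.3% and 29.6% were. At 24 h IER2 was lost with ERCC scaling (-0.26, adjusted p = 0.133) and CSRNP1 without the first untreated CNOT1-AID library at 24 h (adjusted p = 0.058). At 8 h SRF was lost without scaling, with ERCC scaling, which gave 0.23, and without any 1 of 4 libraries. EGR3 was the exception at 24 h (-0.16 ± 0.28, adjusted p = 0.648), and IER2, EGR1 and EGR3 at 8 h. Those at 8 h depended on scaling. IER2 and EGR1 passed in limma without scaling (0.46 and 0.40, adjusted p = 0.00279 and 0.0312). Both passed with ERCC scaling (0.78 and 0.72, adjusted p = 0.000178 and 0.000404), as did EGR3 (0.85, adjusted p = 0.0143). With ERCC scaling 7 members were higher and 1 lower at 8 h, where 6856 of 14921 genes were higher and 868 lower. The median of all genes was then 0.46.

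In CNOT4-AID cells the members changed little. At 8 h 0 of 9 passed in limma, with 2 at an unadjusted p under 0.05 (IER3 and CSRNP1), where 0.288% of all genes passed. At 24 h IER3 went from 63.04 and 60.48 TPM to 50.44 in both auxin libraries, and CSRNP1 from 6.64 and 5.76 to 4.78 and 4.36. Both fell, with log2 differences of -0.41 ± 0.061 (adjusted p = 0.00288) and -0.52 ± 0.094 (adjusted p = 0.00914), where 2.42% of all genes fell. With ERCC scaling or none neither passed; IER3 was lost without the first untreated library (adjusted p = 0.0678), and CSRNP1 without that library (adjusted p = 0.135) or either auxin library (adjusted p = 0.056 and 0.0865). Against the parental response 0 of 9 passed in limma, with 4 at an unadjusted p under 0.05, where 0.067% of all genes did; the difference was -0.36 ± 0.087 for IER3 (adjusted p = 0.103) and -0.39 ± 0.13 for CSRNP1 (adjusted p = 0.195).

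CNOT4-AID cells also differed from parental cells before auxin. IER3 (-0.14), EGR1 (-0.22) and EGR3 (-0.45) were lower and IER5 was higher (0.12, but -0.14 without scaling) in untreated cells, 4 of 9 members where 20.2% of all genes passed. Leaving out any 1 of the 8 untreated parental and CNOT4-AID libraries left 1 or 2 of these calls, and ERCC scaling left 0. Small nuclear RNA took up more of the TPM in some CNOT4-AID libraries, to 34.1% in the first 8 h auxin library, and its part in these differences was not tested.

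The difference at 2 h of auxin is read from the decay set before triptolide, as CNOT1-AID against parental cells that had the same auxin, since no untreated libraries belong to that set. EGR1 stood out among the members. Its counts were 2217 and 1634 in parental and 15188 and 15589 in CNOT1-AID cells, and after TMM scaling it was 3.03 ± 0.21 higher (SE, log2; 8.18-fold; edgeR quasi-likelihood test, Benjamini-Hochberg adjusted p = 2.87e-08). The difference was 3.42 without the first parental library and 2.71 without the second.

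IER3 had 4794 and 4693 counts in parental and 16242 and 15936 in CNOT1-AID cells, 1.81 ± 0.12 higher. CSRNP1 had 724 and 776 against 2017 and 1970, 1.47 ± 0.11 higher, and EGR3 had 263 and 244 against 692 and 641, 1.44 ± 0.16 higher. These 3 genes did not overlap between lines, and their adjusted p values ran from 2e-08 to 7.71e-06. IER5L was 1.30 ± 0.30 higher (adjusted p = 0.00661), CSRNP2 0.61 ± 0.11, IER5 0.59 ± 0.16 (adjusted p = 0.016) and IER2 0.55 ± 0.16 (adjusted p = 0.0219).

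In all 8 of 9 members were higher at this time, where 9.66% of all genes were; SRF was 0.26 ± 0.19 higher (adjusted p = 0.424). The 2 parental libraries before triptolide agreed least of all pairs in this set (r = 0.9864 over genes, against 0.9891 to 0.9922 for the rest): 9 members passed without the first of them, with SRF at 0.79 (adjusted p = 7.29e-05), and 7 without the second. Without the first and without the second, IER5L was 2.05 and 0.78 higher, IER5 0.97 and 0.27, and IER2 0.96 and 0.22. Without the second CNOT1-AID library 5 passed; IER5L was lost there (adjusted p = 0.0538), IER5 and IER2 were lost without either CNOT1-AID library (adjusted p = 0.0664 and 0.104 for IER5, 0.11 and 0.097 for IER2), and IER5 also without the second parental library (adjusted p = 0.0519). With ERCC scaling, which moved the median of all genes from 0.04 to 0.36, 6 passed, and 841 of all genes were higher and 172 lower against 1623 and 814 with TMM. In CNOT4-AID cells 0 of 9 differed from parental cells by edgeR, with 2 at an unadjusted p under 0.05 and 0 by DESeq2, where 12% of all genes passed. Some of these differences hung on the parental library used. Without the first and without the second, the difference was 0.79 and -0.12 for SRF, but 0.18 and 0.15 for CSRNP2.

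**Figure D2:**
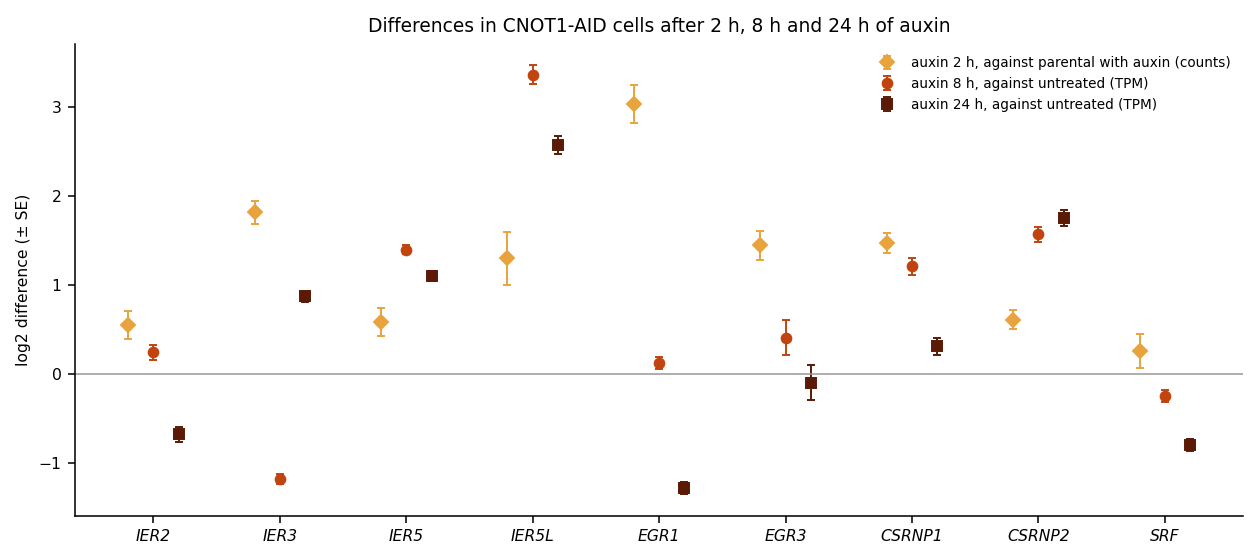
Log2 difference ± SE (vertical axis) of each of the 9 genes (horizontal axis) in CNOT1-AID cells at 2 h of auxin against parental cells with auxin (counts, diamonds), and at 8 h (circles) and 24 h (squares) of auxin against untreated CNOT1-AID cells (TPM). EGR1 goes from 3.03 at 2 h through 0.12 to -1.28, while IER5L is highest at 8 h (3.36); SRF at 8 h is -0.24 here but above 0 with ERCC scaling or none.

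The members differed in when they were high. The 2 h values compare lines and the others compare treatments, so only 8 h and 24 h were tested against each other. The difference between the 24 h and 8 h responses within CNOT1-AID cells, which share no library, passed for 7 members, 1 higher (IER3) and 6 lower, where 17.4% of all genes were higher and 18.9% lower. It was -1.40 ± 0.098 for EGR1, -0.92 ± 0.12 for IER2, -0.90 ± 0.13 for CSRNP1, -0.79 ± 0.15 for IER5L, -0.55 ± 0.098 for SRF and -0.30 ± 0.074 for IER5. IER5 was lost without scaling (adjusted p = 0.0812) and with ERCC scaling (adjusted p = 0.0802). CSRNP2 (0.18 ± 0.12, adjusted p = 0.273) and EGR3 (-0.50 ± 0.28, adjusted p = 0.174) did not pass.

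When triptolide was added, most members were lost fast from parental cells. Counts were scaled to 56 ERCC spike-in sequences, so that a fall of total mRNA would show. EGR1 fell from 2968.3 and 1527.3 ERCC-scaled counts before triptolide to 154.97 and 157.20 at 3 h, which left 6.94%. CSRNP1 fell from 969.37 and 725.32 to 19.742 and 27.906, which left 2.81%, and IER3 from 6418.7 and 4386.5 to 200.38 and 159.06, which left 3.33%. At 3 h 6.49% of IER5, 7.70% of IER2, 11.9% of IER5L and 28.5% of EGR3 were left, so that 7 of 9 members fell by edgeR, where 13.1% of all genes did. CSRNP2 and SRF, with 59.3% and 61.9% left, did not pass (adjusted p = 0.0831 and 0.116); SRF passed without the second parental library before triptolide (-1.17, adjusted p = 0.00768) but was at 0.02 without the first (adjusted p = 1), and with TMM scaling or library size only all 9 passed.

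If the loss over these 3 h was exponential, the half-life in parental cells was 35.0 min for CSRNP1, 36.7 min for IER3, 45.7 min for IER5, 46.8 min for EGR1, 48.7 min for IER2, 59.0 min for IER5L and 99.6 min for EGR3. These values rest on the parental libraries before triptolide, which differed. Without the first and without the second, the log2 change over 3 h was -2.11 and -3.63 for IER5L and -3.29 and -4.25 for EGR1. It was -3.12 and -4.11 for IER2, and -4.92 and -5.34 for CSRNP1. Loss was slower later: EGR1 was at 3.09% and IER3 at 1.16% of the starting level at 12 h, and CSRNP1 at 0.774%, which rests on 11 and 5 counts. The fitted change from 3 h to 12 h was -1.17 for EGR1, against -3.85 over the first 3 h.

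In CNOT1-AID cells EGR1 was not lost. Its ERCC-scaled counts were 20953 and 23992 before triptolide, 23013 and 33761 at 3 h, 20342 and 20788 at 6 h and 23849 and 18034 at 12 h, so that 126% of the starting mean was present at 3 h and 93.2% at 12 h. CSRNP1 behaved alike, with 2782.6 and 3032.0 at the start, 2531.8 and 3494.3 at 3 h, and 80.5% left at 12 h. At 3 h the libraries of both genes overlapped those of the start. CNOT1-AID and parental libraries did not overlap at any time; the mean ERCC-scaled level of EGR1 was 10 times the parental one before triptolide and 182 times at 3 h.

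The change over the first 3 h was tested between lines. It was 4.18 ± 0.44 higher in CNOT1-AID than in parental cells for EGR1 (SE, log2; edgeR adjusted p = 2.31e-18) and 5.19 ± 0.48 higher for CSRNP1 (adjusted p = 2.85e-23). The difference was also past the threshold for IER5L (2.92 ± 0.50), IER5 (2.90 ± 0.45), IER3 (1.99 ± 0.43) and EGR3 (1.82 ± 0.45), 6 of 9 members where 3.25% of all genes were higher. EGR3 was lost without the first parental library before triptolide (adjusted p = 0.0764), the second parental library at 3 h (adjusted p = 0.0678) or the second CNOT1-AID library at 3 h (adjusted p = 0.0511). IER2 (1.32 ± 0.43, adjusted p = 0.0599) missed the threshold and passed by DESeq2 and with TMM or library size scaling. Its difference was 0.74 without the first parental library before triptolide and 1.74 without the second. CSRNP2 passed in edgeR with TMM (0.71, adjusted p = 0.00423) and with library size only (0.73, adjusted p = 0.00351), so that 8 of 9 members passed with either scaling.

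3 members were still lost from CNOT1-AID cells. IER3 fell from 22407 and 24527 ERCC-scaled counts to 2566.8 and 3620.1 at 3 h, 1119.8 and 1322.4 at 6 h and 433.07 and 291.47 at 12 h. This left 13.2% at 3 h and 1.54% at 12 h, against 1.16% at 12 h in parental cells. IER2 was at 19.3% at 3 h and 9.57% at 12 h, and IER5 at 48.7% and 35.3%.

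The log2 change over the first 3 h was -2.92 ± 0.32 for IER3 (adjusted p = 3.61e-17), -2.38 ± 0.32 for IER2 (adjusted p = 1.62e-11) and -1.04 ± 0.31 for IER5 (adjusted p = 0.0179), where 3.89% of all genes fell. IER5 was lost when any 1 of the 4 CNOT1-AID libraries at 0 h and 3 h was left out (adjusted p from 0.0802 to 0.253). The remaining 6 had 91.3% (IER5L), 101% (EGR3), 113% (CSRNP2) and 106% (SRF) left at 3 h, beside EGR1 and CSRNP1, and each had an adjusted p of at least 0.976.

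**Figure D3:**
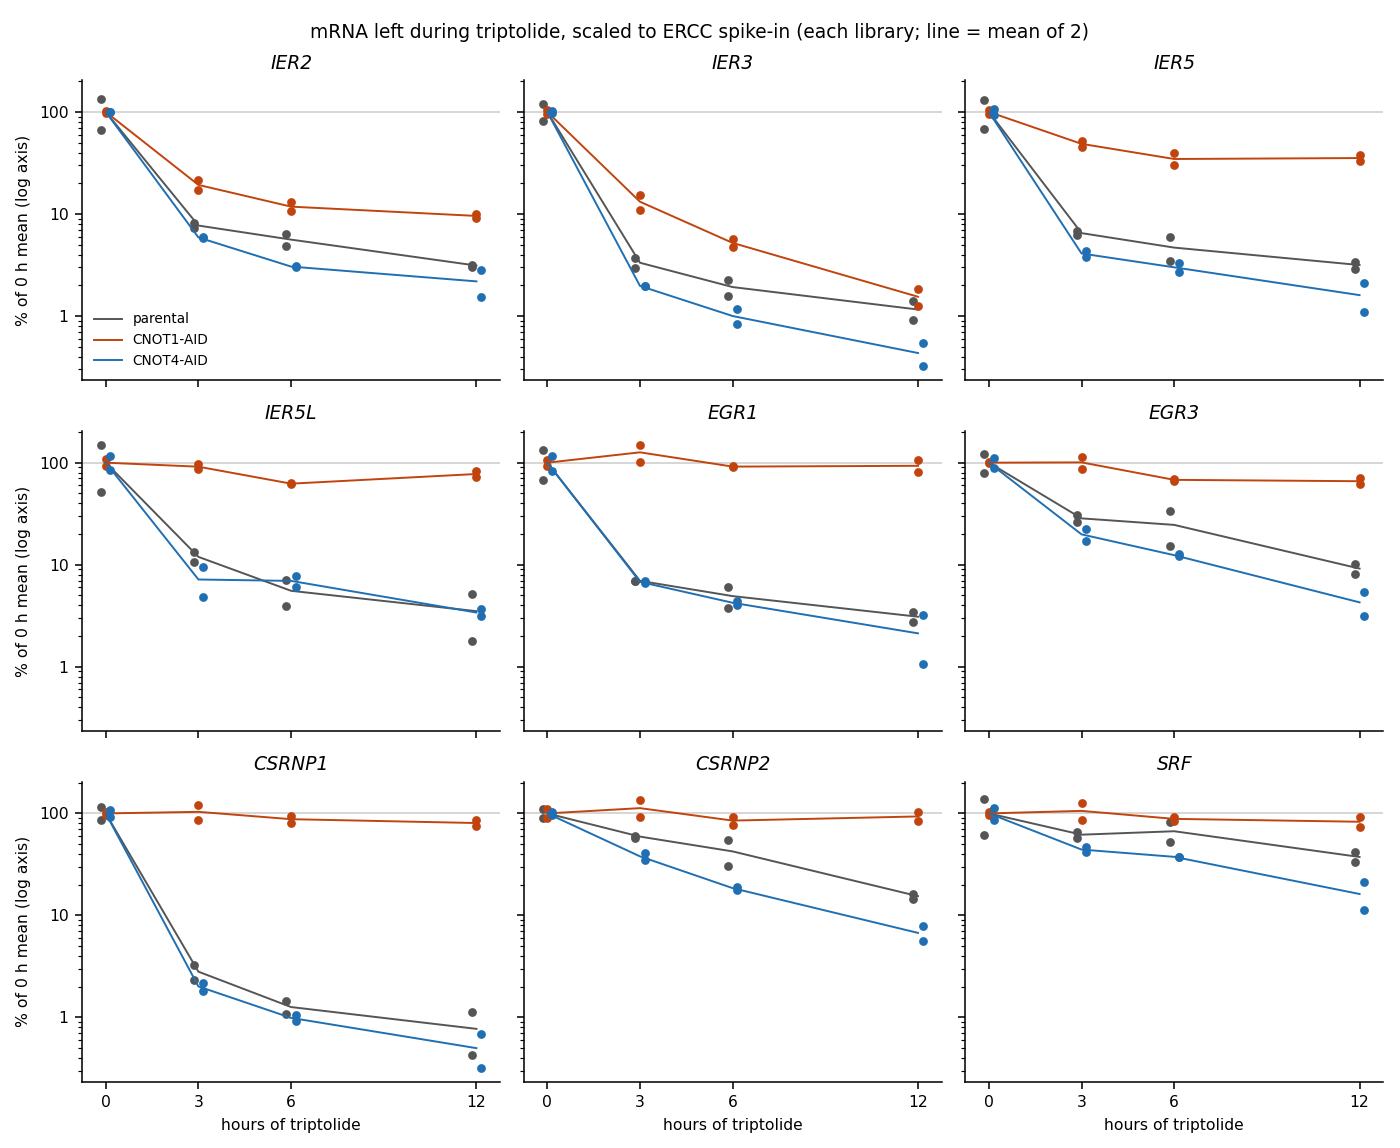
ERCC-scaled mRNA left, as a percent of the mean before triptolide (vertical log axis), against hours of triptolide (horizontal axis); points are libraries, lines are means of 2, for parental, CNOT1-AID and CNOT4-AID cells. EGR1 stays at 93.2% to 12 h in CNOT1-AID cells and falls to 3.09% and 2.12% in the other lines, while IER3 falls in all 3 lines.

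The fall over the whole 12 h was also fitted as 1 slope per line in log2 per hour, and it divided the members in part otherwise. Against parental cells, with ERCC scaling, IER3 and IER5 passed only in the 3 h change and CSRNP2 only in the slope. All 9 slopes were below 0 and past the threshold in parental cells, where those of 48.3% of all genes were, and in CNOT4-AID cells, where 85.6% were. In parental cells SRF was lost with TMM scaling (adjusted p = 0.0883) and over 0 to 6 h (adjusted p = 0.189), which left 8. In CNOT1-AID cells 1 slope passed, that of IER3 (-0.49 ± 0.12, adjusted p = 0.00878), where 10.9% of all genes did; IER2 (-0.26 ± 0.085, adjusted p = 0.0521) passed by DESeq2, with library size only, and over 0 to 6 h. The slope was higher in CNOT1-AID than in parental cells for 5 members, where 18.8% of all genes were: CSRNP1 (0.72 ± 0.16), IER5L (0.40 ± 0.10), EGR1 (0.38 ± 0.11), EGR3 (0.22 ± 0.048) and CSRNP2 (0.21 ± 0.033). EGR1 was lost there without the first parental library before triptolide (adjusted p = 0.0596), EGR3 and CSRNP2 were lost over 0 to 6 h (adjusted p = 0.112 and 0.122), and IER5 and SRF passed as well with library size only. For IER3 the slopes differed by 0.04 ± 0.14 (adjusted p = 0.951), but 1 slope does not hold its course. Its fitted change in parental cells was -4.91 over the first 3 h and -1.52 from 3 h to 12 h. In CNOT1-AID cells it was -2.92 and -3.09.

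The split of all genes moved with scaling in these fits. ERCC scaling gave 125 genes with a higher and 8109 with a lower slope in parental cells and TMM 4581 and 5236, while for CNOT1-AID minus parental the counts were 3167 and 158 against 3446 and 2645. Over 0 to 3 h the median of all genes was -0.11, 0.12 and -0.52 in parental, CNOT1-AID and CNOT4-AID cells with ERCC scaling, against 0.03, 0.06 and 0.00 with TMM. The genes that were higher and lower at 3 h numbered 298 and 2194 with ERCC scaling and 2252 and 3266 with TMM in parental cells, 249 and 653 against 649 and 1178 in CNOT1-AID cells, and 248 and 5070 against 2387 and 3845 in CNOT4-AID cells.

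CNOT4-AID cells lost all 9 members. At 3 h 6.79% of EGR1, 2.01% of CSRNP1, 1.97% of IER3, 37.9% of CSRNP2 and 44.2% of SRF were left, and all 9 fell, where 30.2% of all genes did. Against parental cells the change over 3 h differed for 0 of 9 by edgeR, with 0 at an unadjusted p under 0.05 and 0 by DESeq2, where 0.0417% of all genes passed. For EGR1 the difference was -0.03 ± 0.43 and for IER3 -0.76 ± 0.43. The slope differed for 0 of 9 by edgeR, with 2 at an unadjusted p under 0.05 (CSRNP2, -0.10 ± 0.033, and SRF, -0.10 ± 0.035) and 2 by DESeq2, where 0.845% of all genes were lower; without the first parental library before triptolide SRF passed (adjusted p = 0.0243). Between CNOT1-AID and CNOT4-AID cells all 9 members differed in the 3 h change, where 9.56% of all genes were higher in CNOT1-AID cells. That of SRF (1.26 ± 0.42, adjusted p = 0.0351) was lost with TMM scaling (adjusted p = 0.156), library size only (adjusted p = 0.0923), no filter on low counts (adjusted p = 0.056), by DESeq2 (adjusted p = 0.0533) and without either CNOT1-AID library at 0 h, the second CNOT1-AID library at 3 h, the second CNOT4-AID library at 0 h or either CNOT4-AID library at 3 h (adjusted p from 0.0879 to 0.38). That of CSRNP2 (1.57 ± 0.43, adjusted p = 0.0055) was lost without the first CNOT1-AID library at 0 h (adjusted p = 0.0852), the second at 3 h (adjusted p = 0.125) or the first CNOT4-AID library at 3 h (adjusted p = 0.0783).

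Across the 12 steady-state group means most members formed 2 sets by course. IER5, IER5L and CSRNP2 had pairwise Pearson correlations of 0.97 to 0.99, and EGR1, IER2 and SRF of 0.85 to 0.94, while IER3 stood apart from both (-0.73 with IER2, -0.12 with IER5L). CSRNP1 and EGR3 were less clearly placed. CSRNP1 had 0.57 to 0.68 with the first set and 0.69 with EGR3, and EGR3 had 0.57 to 0.61 with the second set. The 12 points share cell lines and scaling, so these values are descriptions. Of 8857 protein-coding genes with a mean of at least 5 TPM, those most like each member were HASPIN and RHOB for IER5L (both r = 0.99), CBX8 and C1orf52 for CSRNP2, FAM83D and MYLIP for IER5, TMEM222 and SELENOO for EGR1, ARHGAP8 and SH2B1 for IER2, CPOX and CDK6 for SRF, MAFG and SPRY4 for IER3, PRXL2B and CIPC for CSRNP1, and RELB and RIN3 for EGR3.

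Other immediate early genes, 34 by a fixed list, were mostly higher in CNOT1-AID cells. At 8 h 22 rose and 7 fell, where 33.1% and 29.8% of all genes did, and at 24 h 26 rose and 7 fell (26 and 5 with ERCC scaling), where 36.7% and 34.8% did. The median log2 difference at 24 h was 1.25 against -0.01 over all genes. TRIB1, a pseudokinase, rose by 3.44 ± 0.065 at 24 h, KLF2, a zinc-finger factor, by 3.10 ± 0.17, PLK3, a stress kinase, by 2.78 ± 0.15 and DUSP2, a MAP kinase phosphatase, by 2.68 ± 0.12. ID1, an inhibitor of basic helix-loop-helix factors, changed by -2.90 ± 0.087, KLF6 by -1.70, JUND by -1.50 and GADD45B by -1.13.

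Under triptolide 33 of these genes were tested. All 33 fell over 3 h in parental cells, where 13.1% of all genes fell, with a median of -3.34 against -0.11 over all genes, and all 33 in CNOT4-AID cells, where 30.2% fell. In CNOT1-AID cells 7 fell, where 3.89% of all genes did, with a median of -0.10: JUN, ATF3, KLF6, DUSP6, PPP1R15A, GADD45B and ID1, named after their values were seen. The log2 change was -4.41 ± 0.37 for GADD45B, -3.04 for PPP1R15A and -2.84 for KLF6. With TMM scaling 9 fell. The difference from parental cells was past the threshold for 25 of 33, all higher, where 3.25% of all genes were. Before triptolide 26 of 33 were higher in CNOT1-AID cells, where 9.66% of all genes were. By the fall within CNOT1-AID cells, IER3, IER2 and IER5 stood with a minority of the class, and EGR1, CSRNP1, IER5L and EGR3 with the majority. The IER5 call did not hold with a CNOT1-AID library at 0 h or 3 h left out. By the difference from parental cells IER3 (1.99) and IER5 (2.90) passed, as did most of the class, and IER2 missed the threshold.

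**Figure D4:**
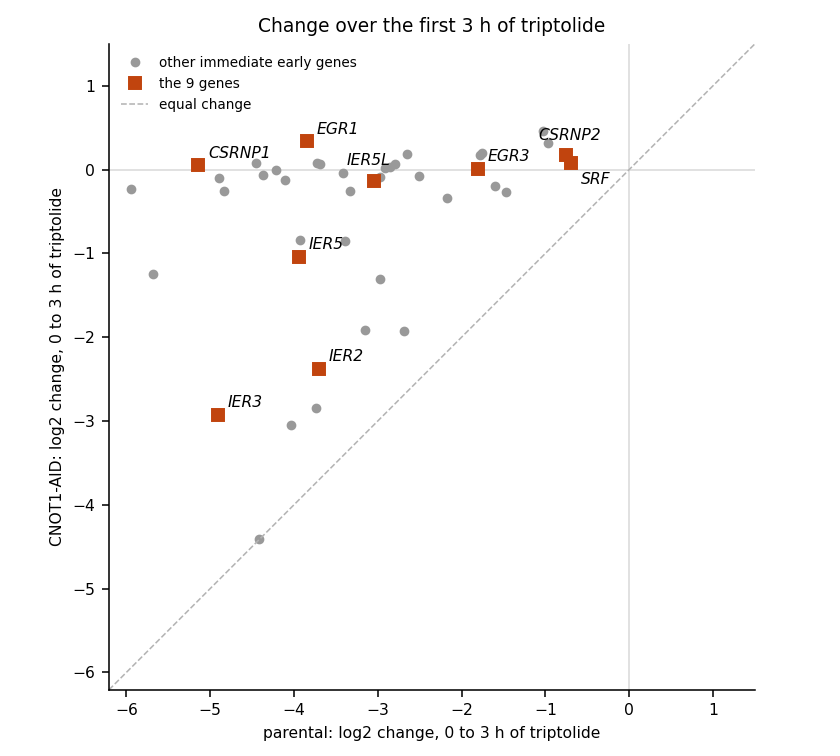
Log2 change over the first 3 h of triptolide, ERCC-scaled, in parental cells (horizontal axis) and CNOT1-AID cells (vertical axis); squares are the 9 genes, grey points 33 other immediate early genes, and the dashed line marks equal change. EGR1 is at -3.85 in parental cells and 0.34 in CNOT1-AID cells, and IER3 at -4.91 and -2.92.

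The partners and upstream genes of SRF and the EGR factors moved in both directions. Of 10 SRF cofactors and EGR partners 8 were tested, and 4 rose and 2 fell at 24 h in CNOT1-AID cells, counts near the background of 36.7% and 34.8%. NAB2, a corepressor of EGR1, rose by 2.13 ± 0.067 and the related NAB1 changed by -1.32 ± 0.11, and the SRF cofactors MRTFA and MRTFB rose by 1.11 and 0.40 while ELK4 changed by -0.72. Of 12 genes of the kinase route to SRF 2 rose and 7 fell at 24 h, but 4 rose and 5 fell with ERCC scaling or none, and the median of the list went from -0.37 to 0.0065 with ERCC scaling: MAP2K1 rose by 0.21, and HRAS changed by -1.27, MAP2K2 by -1.18 and NRAS by -0.93.

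Of 14 SRF targets of actin and adhesion, 3 rose and 9 fell at 8 h and 1 rose and 11 fell at 24 h, with a median of -0.75 at 24 h against -0.01 over all genes. With ERCC scaling 5 rose and 4 fell at 8 h, and 3 rose and 8 fell at 24 h (median -0.41). TAGLN, an actin-binding protein, changed by -2.51 ± 0.13, TPM1, a tropomyosin, by -2.39 ± 0.041, FLNA, which crosslinks actin, by -1.83 and CNN2, a calponin, by -1.37. ZYX, a focal adhesion protein, rose by 0.59 ± 0.059. In untreated cells 11 of the 14 were already higher in CNOT1-AID than in parental cells, and 5 with ERCC scaling or none, where 10.1% of all genes were higher with TMM.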

How the data were processed

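Steady-state values were TPM per gene that the authors deposited for 24 libraries (the file is named for counts, but each column sums to the fixed TPM total). Decay values were raw read counts deposited for 24 libraries. STAR 2.5.1b, RSEM, featureCounts, SAMtools and DESeq2 are named in the submitters' processing notes, with GRCh38, but which tool made which table is not given in the sources used here; total RNA was made into stranded libraries, per the labels' protocols. Gene identifiers (58721, GENCODE 29) were matched to the annotation, and the 92 ERCC sequences were kept for scaling only.

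TPM were TMM-scaled, a pseudocount of 0.5 was added, and 14921 genes with at least 1 TPM in at least 2 libraries were fitted in limma 3.58.1 (trend, robust; 12 groups of 2, 12 residual degrees of freedom; 16 contrasts). Counts of 16806 genes passing edgeR's filter were fitted with the quasi-likelihood test of edgeR 4.0.16 (R 4.3.3), scaled by 56 ERCC sequences with a mean of at least 10 counts (decay) or by TMM (before triptolide); a standard error is the log2 change divided by the root of F. P-values were Benjamini-Hochberg adjusted over all genes tested in each contrast, with a threshold of 0.05. Percent left is relative to the mean of the 2 libraries before triptolide. The scripts were tested on simulated data. Alternatives were other scalings, pseudocounts and filters, DESeq2 1.42.0, the 0 to 6 h slope, a replicate block and each library left out.

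The 9 members are all named; of each further list up to 4 per direction are named, those past the threshold in CNOT1-AID cells at 24 h with the largest change and a mean of at least 5 TPM. Single values of some genes of the kinase list that meet this rule are not reported here. Members and lists were chosen with earlier results of these data known. TPM keep no depth, so no counting error is given for them.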

Additional observations from a re-analysis of the deposited data

Results flagged for a closer look

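The 126 differences covered here are those between lines in the response to auxin, in the change over the first 3 h of triptolide and in the slope under triptolide, and those between 8 h and 24 h within each tagged line. Of these, 61 passed the threshold for a member. Over all genes the share past it ranged widely among these contrasts. It was 0.0134% for the CNOT4-AID minus parental response at 8 h and 62.2% for CNOT1-AID minus CNOT4-AID at 24 h. For CNOT1-AID minus parental it was 50.3% at 8 h, 61.9% at 24 h and 3.37% over 0 to 3 h of triptolide. Many of the contrasts share libraries, so they are not separate results. The values (log2) follow. In the steady-state response of CNOT1-AID minus parental cells at 8 h they were -1.06 for IER3, 1.46 for IER5, 3.33 for IER5L, 1.29 for CSRNP1, 1.59 for CSRNP2 and -0.27 for SRF, the last of which was 0.23 with ERCC scaling. At 24 h they were -0.66 for IER2, 0.93 for IER3, 1.03 for IER5, 2.44 for IER5L, -1.09 for EGR1, 0.44 for CSRNP1, 1.73 for CSRNP2 and -0.82 for SRF, of which IER2 was lost with ERCC scaling and CSRNP1 without the first untreated CNOT1-AID library at 24 h.

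Within CNOT1-AID cells the 24 h response minus the 8 h response was 2.05 for IER3, -0.92 for IER2, -0.30 for IER5, -0.79 for IER5L, -1.40 for EGR1, -0.90 for CSRNP1 and -0.55 for SRF, of which IER5 was lost without scaling and with ERCC scaling. In the slope under triptolide (log2 per hour) CNOT1-AID minus parental cells gave 0.40 for IER5L, 0.38 for EGR1, 0.22 for EGR3, 0.72 for CSRNP1 and 0.21 for CSRNP2, of which EGR1 was lost without the first parental library before triptolide, and EGR3 and CSRNP2 over 0 to 6 h. In the change over the first 3 h they gave 1.99 for IER3, 2.90 for IER5, 2.92 for IER5L, 4.18 for EGR1, 1.82 for EGR3 and 5.19 for CSRNP1, of which EGR3 was lost without any 1 of 3 libraries.

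Between CNOT1-AID and CNOT4-AID cells the response at 8 h differed by -0.94 for IER3, 1.51 for IER5, 3.48 for IER5L, 1.48 for CSRNP1 and 1.69 for CSRNP2, where 27.6% of all genes were higher and 24% lower. At 24 h the values were -0.48 for IER2, 1.29 for IER3, 1.16 for IER5, 2.80 for IER5L, -1.33 for EGR1, 0.83 for CSRNP1, 1.69 for CSRNP2 and -0.85 for SRF, where 32% were higher and 30.1% lower; IER2 was lost there with ERCC scaling (adjusted p = 0.063). The slopes differed by 0.39 for IER5, 0.39 for IER5L, 0.43 for EGR1, 0.32 for EGR3, 0.74 for CSRNP1, 0.30 for CSRNP2 and 0.18 for SRF, where 51.5% of all genes were higher, and SRF was lost over 0 to 6 h (adjusted p = 0.0558). The changes over 3 h differed by 1.71 for IER2, 2.74 for IER3, 3.56 for IER5, 3.70 for IER5L, 4.22 for EGR1, 2.33 for EGR3, 5.69 for CSRNP1, 1.57 for CSRNP2 and 1.26 for SRF. No group had enough libraries for a test of a single library that stands apart.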

How the results depend on the processing

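Of 3399 member values recomputed under the alternatives, 3250 kept their side of the threshold, 91 fell short of it, 52 newly passed it and 6 that passed in at least 1 of the fits changed sign; 142 that passed in neither fit also changed sign. The 6 were SRF in CNOT1-AID cells at 8 h (0.047 with no scaling, 0.21 with ERCC scaling), SRF in CNOT1-AID minus parental cells at 8 h (0.23 with ERCC scaling), SRF in CNOT1-AID minus CNOT4-AID cells at 8 h (0.37 with ERCC scaling), and IER5 and CSRNP2 in untreated CNOT4-AID minus parental cells (-0.14 and -0.21 with no scaling). Counts of members past the threshold moved by over 1.5 times as follows. In CNOT4-AID cells at 24 h 2 became 0 with no scaling or ERCC scaling, and 0 to 2 with a library left out. In CNOT1-AID minus CNOT4-AID cells at 8 h 5 became 9 with ERCC scaling, where 7379 of all genes were higher and 766 lower. In untreated CNOT1-AID minus parental cells 1 became 0 with either scaling, and 0 to 1 with a library left out; in untreated CNOT4-AID cells 4 became 7 with no scaling and 0 with ERCC scaling, and 1 to 2 with a library left out. The CNOT1-AID slope count of 1 became 2 with library size only, DESeq2 or 0 to 6 h. The CNOT1-AID minus parental slope count of 5 became 3 over 0 to 6 h (7 with library size only, a smaller move), and the CNOT4-AID minus parental one of 0 became 2 by DESeq2 and 0 to 1 with a library left out. Before triptolide, the counts for CNOT1-AID and for CNOT4-AID cells moved with a library left out, and the counts over all genes moved as well. The cause was not tested. EGR3 was not tested in the fit of CNOT4-AID libraries alone.

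Deviations of samples with the same replicate number were weakly correlated (r from -0.207 to 0.102). Such values cannot show whether these samples shared a culture or a day. The fit with the replicate block changed the call of 0 of 270 member values, with 7 members past the threshold in CNOT1-AID cells at 8 h and 8 at 24 h in both fits. With 2 libraries per group, small differences such as those of IER2 and SRF at 8 h hang on single libraries, and CSRNP1 at 12 h of triptolide in parental cells rests on 11 and 5 counts.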
